A study of Mus musculus with 4 samples.

Results

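The collagen chain genes are those whose mouse symbol is written as Col, a number, the letter a and a number. They were taken from the probe sets that the platform annotation ties to exactly 1 gene symbol, and a gene is read from the probe set that is brightest on average (mean log2 signal). This gave 36 genes, with 58 probe sets, of 12393 genes on the array. The rule used names and brightness and no difference between treatments.

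Collagens are proteins in which chains with a repeated glycine wind into a triple helix, and they give joint tissue its tensile strength. Types I, III and V form the banded fibrils that fibroblasts make. Type IV forms the sheet of basement membranes, type VI forms beaded filaments around cells, and FACIT collagens sit on the surface of fibrils. Types II, IX, X and XI are best known from cartilage, where type XI is part of the fibril core. Synovial fibroblasts make collagen and, when activated, also the proteases that break it down.

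RNA came from synovial fibroblasts grown from the knees of naïve DBA/1J males aged 8 to 12 weeks, at passage 3 to 4 and in medium with 1% serum. All dishes were collected 6 h after treatment, and there was 1 array for each of 4 treatments. The dish called the iloprost dish received IL-1β at 5 ng/ml, indomethacin at 1 µM and iloprost at 1 µM. The indomethacin dish received IL-1β and indomethacin at the same doses, the IL-1β dish received IL-1β alone, and the vehicle dish received none of the 3 agents. IL-1β is an inflammatory cytokine of the joint, indomethacin blocks the cyclooxygenases that start prostanoid synthesis, and iloprost mimics prostacyclin and is more stable. The series asks how prostacyclin signalling acts on fibroblasts activated by IL-1β.

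The deposited values are linear signals. A signal at or under 37.6, the 50th percentile of all values, was taken as not measurable and set to this floor. The median gene differed by 0.23 on the log2 scale between the IL-1β and vehicle arrays, by -0.15 between the indomethacin and IL-1β arrays and by 0.01 between the iloprost and indomethacin arrays. Signals are printed as deposited, and each log2 ratio has this shift of the median gene taken off. A gene is counted as higher or lower at a ratio of 1.5-fold, which is 0.58 on the log2 scale. With 1 array per treatment there is no spread between dishes, no test and no p-value. The only error that could be measured is the disagreement between probe sets of 1 gene, an SD per probe set of 0.21, 0.20 and 0.20 in these 3 comparisons, and it does not include differences between dishes.

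The cultures carried fibroblast RNA together with RNA of macrophage genes. Of 11 fibroblast markers on the array, 9 were above the floor on all 4 arrays, among them the intermediate filament gene Vim, at 5539 to 6052, and the growth factor receptor gene Pdgfra, at 1213 to 1524. The fibroblast list summed to 16271 in the iloprost dish, 14918 in the indomethacin dish, 17181 in the IL-1β dish and 14825 in the vehicle dish. Of 17 macrophage markers, 17 were above the floor, among them Csf1r at 3998 to 4731 and Cd68 at 1512 to 1859. The summed signal of the macrophage list was 31654 in the iloprost dish, 33898 in the indomethacin dish, 39881 in the IL-1β dish and 34689 in the vehicle dish. All 8 endothelial, all 5 osteoblast and all 3 keratinocyte markers, and 7 of 8 chondrocyte markers, were at the floor on all 4 arrays, Pecam1 and Acan included. Of 7 smooth muscle and myofibroblast markers, 4 were above it on all arrays, with Acta2 at 2242 to 2372. With IL-1β against vehicle, the fibroblast markers Pdpn and Pdgfrb stood at 0.78 and -0.59 and the smooth muscle marker Cnn1 at -0.94, and Pdpn stood at 0.99 with iloprost against indomethacin. In bulk RNA, fewer cells of a type and less RNA per cell cannot be told apart.

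Of the 36 collagen genes, 18 were above the floor on all 4 arrays and 18 were at the floor on all 4, with none in between. The measured genes were 7 of 9 fibrillar chains, 3 of 6 type IV chains, all 3 type VI chains, 1 of 2 short-chain network genes, 3 of 9 FACIT and related chains and 1 of 2 multiplexins. At the floor throughout were the cartilage chains Col2a1, Col9a1, Col9a2, Col9a3, Col10a1 and Col11a2. The tissue-restricted type IV chains Col4a3, Col4a4 and Col4a6 were also at the floor, as were Col13a1, Col17a1 and Col25a1, which span the cell membrane. The others were Col7a1, which forms the anchoring fibrils of skin, and Col15a1, Col19a1, Col20a1, Col22a1 and Col26a1. Col7a1 came nearest to the floor, with signals of 31.7 in the iloprost dish, 12.4 in the indomethacin dish, 16.3 in the IL-1β dish and 6.8 in the vehicle dish. These values are under the floor and were given no ratio.

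**Figure D1:**
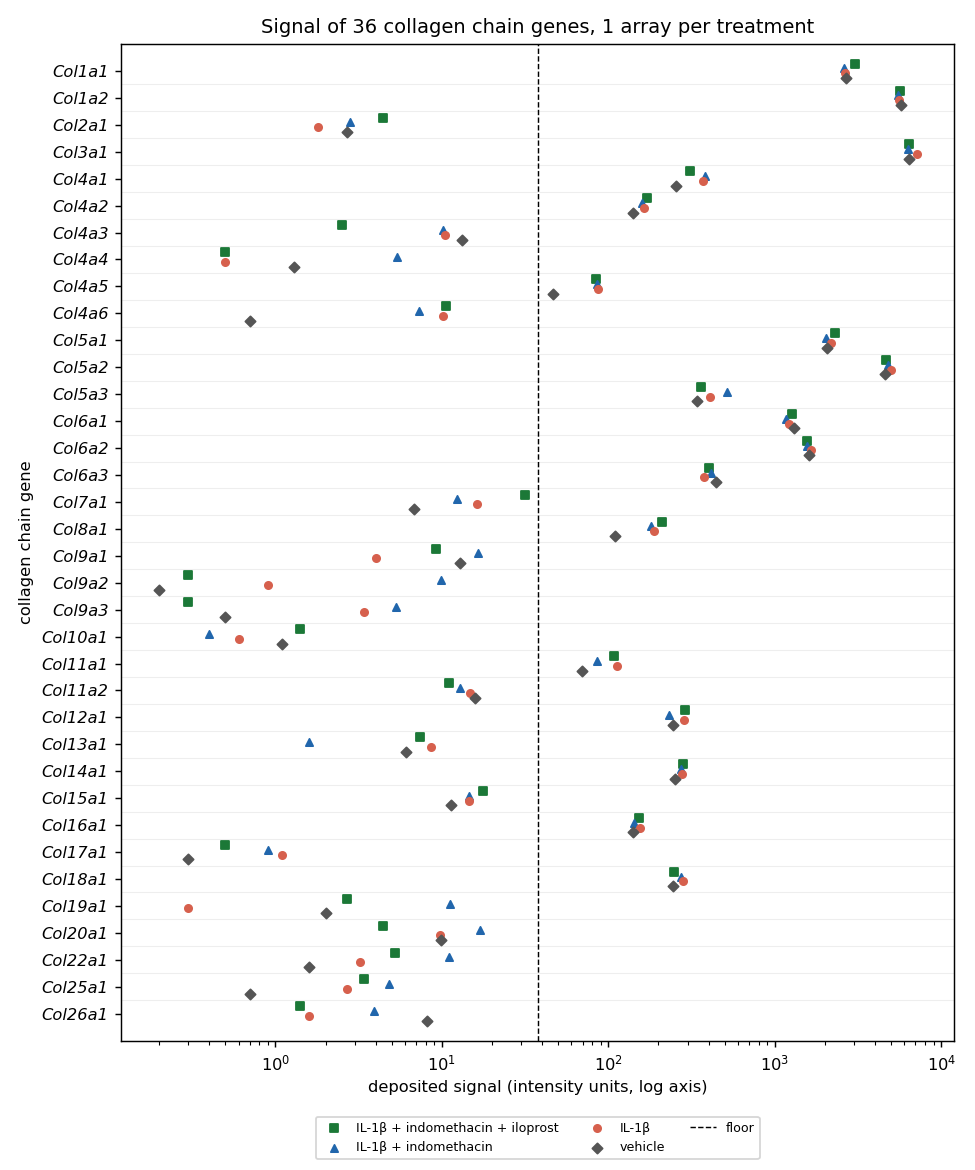
Deposited signal (log axis) of all 36 collagen chain genes, with 1 point per array and the 4 treatments marked by colour and shape; the dashed line is the floor of 37.6. The 18 measured genes lie to the right of the line on every array and the other 18 to the left of it on every array.

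Once each array was centred on its median gene, the 4 dishes lay within 1.5-fold of each other for 16 of the 18 measured collagen genes. The distance on this centred scale between the highest and the lowest array was under 0.3 (log2) for 9 of the 18 genes, against 36.3% of the 6222 genes above the floor on all arrays. It reached 1.5-fold for 2 of 18, or 11.1%, against 24.9% of those genes. The 2 were Col8a1, at 0.85, and Col4a5, at 0.80, and the narrowest was Col3a1, at 0.09. In the signals as deposited, Col11a1 and Col5a3 also passed 1.5-fold, with the highest array 63.5% and 52.2% above the lowest. The median distance was 0.28 for the collagen genes and 0.37 for all genes.

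The promoters of the 2 genes that passed 1.5-fold are printed here, so that they can be read beside the values. That of Col1a2, a fibrillar gene that did not pass 1.5-fold, is printed with them. Each is the 250 bases before the annotated start from RefSeq, build GRCm38.p6, written 5′ to 3′ on the strand of the gene. Capitals mark the CCAAT box and the GC box GGGCGG, searched on both strands, so that the GC box can appear as its complement.
Col8a1, chr16:57754738-57754987, minus strand: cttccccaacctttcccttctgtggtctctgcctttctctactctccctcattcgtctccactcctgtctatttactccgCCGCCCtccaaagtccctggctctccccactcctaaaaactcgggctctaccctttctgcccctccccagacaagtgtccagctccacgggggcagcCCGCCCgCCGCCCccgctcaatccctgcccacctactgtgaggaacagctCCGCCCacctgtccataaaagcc
Col4a5, chrX:141475169-141475418, plus strand: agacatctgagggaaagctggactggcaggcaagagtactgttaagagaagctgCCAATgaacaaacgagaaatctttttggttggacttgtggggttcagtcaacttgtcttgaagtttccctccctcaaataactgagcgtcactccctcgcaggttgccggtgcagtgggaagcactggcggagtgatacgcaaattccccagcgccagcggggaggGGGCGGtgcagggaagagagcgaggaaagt
Col1a2, chr6:4505368-4505617, plus strand: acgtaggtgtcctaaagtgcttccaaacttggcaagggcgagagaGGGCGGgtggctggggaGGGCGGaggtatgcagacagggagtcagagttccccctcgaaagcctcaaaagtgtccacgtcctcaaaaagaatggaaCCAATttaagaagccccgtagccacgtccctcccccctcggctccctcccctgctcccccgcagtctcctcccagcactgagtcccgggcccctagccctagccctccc

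The Col8a1 window held 4 GC boxes and no CCAAT box, the Col4a5 window 1 of each, and the Col1a2 window 2 GC boxes and 1 CCAAT box. Of the 18 measured genes, 14 have a promoter in the table, and 1 window per gene was searched. CCAAT was present in 8 of 14 windows and in 34.5% of the windows of all 27025 genes in the table, and GGGCGG in 10 of 14 and in 32.9%. The AP-1 motif TGANTCA was found in 1 of 14, that of Col6a1, against 6.87% of all windows, and the NF-κB motif in 1 of 14, that of Col4a2, against 7.01%. TATAAA was found in 1 of 14, that of Col3a1, against 3504 of all 27025 windows, and the cAMP response element TGACGTCA in 0 of 14, against 1.62%. A match describes the letters of the window and does not show that a factor binds there.

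IL-1β was compared with vehicle to see whether the cytokine moved collagen expression within 6 h. Of 18 measured collagen genes, 1 was at least 1.5-fold higher, Col4a5, and 0 were lower. Over all 6964 genes measured in this comparison, 4.65% were at least 1.5-fold higher and 3.86% lower. The median log2 ratio of the collagen genes was -0.08, against -0.02 for all genes, and it turned to 0.15 on the scale as deposited, where all genes were at 0.21.

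The chains of the banded fibrils differed little between these dishes. Col1a1 had signals of 3022 in the iloprost dish, 2620 in the indomethacin dish, 2628 in the IL-1β dish and 2664 in the vehicle dish. Col1a2, the partner chain of type I collagen, had 5622, 5511, 5600 and 5698 in the same order, and both genes stood at -0.25 with IL-1β against vehicle. As deposited, both stood at -0.02. The dimmer probe set of Col1a2 gave -0.04 and that of Col1a1 gave 0.17, relative to the median gene. Col3a1, the single chain of type III collagen, had 6374, 6348, 7102 and 6379 and stood at -0.07, which turned to 0.15 as deposited. None of these arrays stood apart by 1.5-fold for any of these genes.

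Col5a1 and Col5a2, the type V chains that start fibril assembly, stood at -0.15 and -0.10 with IL-1β, and both turned positive as deposited, to 0.07 and 0.12. The signals of Col5a1 were 2291 in the iloprost dish, 2029 in the indomethacin dish, 2176 in the IL-1β dish and 2071 in the vehicle dish. Col5a2 had 4657, 4775, 4967 and 4563 in the same order. Col3a1 and Col5a2 are neighbours on chromosome 1. On their brightest probe sets they ranged over 4 arrays by 0.09 and 0.10 on the centred log2 scale. Their dimmer probe sets differed more. That of Col3a1 stood at 0.11 in the IL-1β dish and 0.20 in the iloprost dish against vehicle, and that of Col5a2 at 0.40 in both.

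The 3 chains of type VI collagen were all below the median gene with IL-1β, at -0.32 for Col6a1, -0.45 for Col6a3 and -0.19 for Col6a2, which turned to 0.04 as deposited, and none passed 1.5-fold. Col6a3 had signals of 404 in the iloprost dish, 416 in the indomethacin dish, 377 in the IL-1β dish and 441 in the vehicle dish, so its IL-1β array was the lowest. Col6a1 had 1268, 1169, 1221 and 1304 in the same order and Col6a2 had 1565, 1568, 1644 and 1605. As deposited, Col6a1 and Col6a3 stayed below 0, at -0.10 and -0.23.

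Col4a5, a type IV chain of specialised basement membranes, had signals of 83.9 in the iloprost dish, 85.5 in the indomethacin dish, 86.2 in the IL-1β dish and 46.6 in the vehicle dish. All 3 dishes with IL-1β were thus alike and above the vehicle dish. Against vehicle, the log2 ratio was 0.76 in the iloprost dish, 0.80 in the indomethacin dish and 0.66 in the IL-1β dish, and these ratios share the vehicle array. The vehicle signal lay not far above the floor, and the other probe set of Col4a5 was at 39.7, 39.8, 36.4 and 37.3 in the same order, next to the floor, without this difference. The call therefore rests on 1 probe set. With the floor set at the 65th percentile, a signal of 87, all 4 arrays were at the floor.

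Col8a1, a short-chain network collagen of vascular and mesenchymal cells, had signals of 210 in the iloprost dish, 180 in the indomethacin dish, 187 in the IL-1β dish and 110 in the vehicle dish. The vehicle dish was again the lowest. The ratio against vehicle was 0.54 with IL-1β, just short of 1.5-fold and past it as deposited, at 0.77, and 0.64 with indomethacin and 0.85 with iloprost, which passed it. Its other probe set was at 36.4, 38.8, 37.9 and 30.6, at or next to the floor.

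Col11a1, a fibrillar chain of cartilage that was measurable here although Col2a1 and Col11a2 were not, had signals of 108 in the iloprost dish, 86.0 in the indomethacin dish, 113 in the IL-1β dish and 69.0 in the vehicle dish. Its ratio with IL-1β was 0.48, and 0.13 on its other probe set. The main type IV chain gene Col4a1 had 308, 380, 371 and 257 in the same order, a ratio of 0.31 with IL-1β. Col4a2, which starts head to head with Col4a1 on chromosome 8 and encodes its partner chain, had 170, 159, 164 and 140, a ratio of -0.00, and of 0.22 as deposited. The Col4a1 signal of the vehicle dish was the lowest of the 4 on both of its probe sets.

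The remaining measured genes stayed within 0.1 of the median gene with IL-1β. They were Col5a3, at 0.03, the fibril-surface FACIT chains Col12a1, Col14a1 and Col16a1, at 0.01, -0.08 and -0.09, and Col18a1, a basement membrane multiplexin and the source of endostatin, at -0.02. As deposited, Col14a1, Col16a1 and Col18a1 turned positive. Col12a1 had signals of 288 in the iloprost dish, 231 in the indomethacin dish, 286 in the IL-1β dish and 244 in the vehicle dish. Col14a1 had 279, 273, 277 and 251 in the same order, Col16a1 had 153, 143, 154 and 140, and Col18a1 had 247, 275, 281 and 244. Over all 4 arrays the centred levels of these 4 genes ranged by 0.12 to 0.31.

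**Figure D2:**
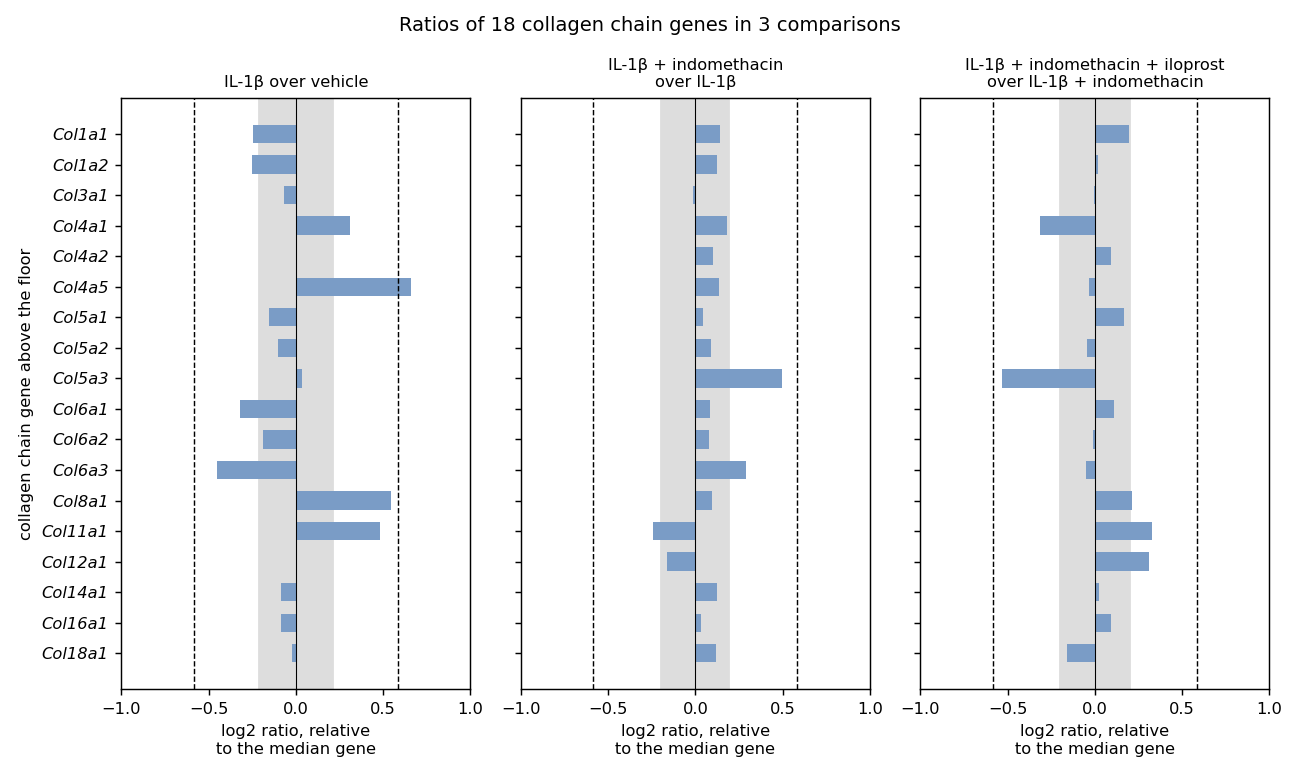
Log2 ratio relative to the median gene (bars) of the 18 measured collagen chain genes in 3 comparisons, 1 array each; dashed lines mark 1.5-fold and the grey band is 1 SD of probe sets of the same gene. Col4a5 with IL-1β, at 0.66, is the single bar past a dashed line, and Col5a3 shows opposite bars with indomethacin, at 0.50, and iloprost, at -0.53.

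Indomethacin added to IL-1β was compared with IL-1β alone, which asks whether the cells' own prostanoids bear on collagen expression. None of 18 collagen genes was 1.5-fold higher or lower, where 1.64% of 6932 genes were higher and 2.35% lower. The median of the collagen genes was 0.10, against 0.00 for all genes, with 15 of 18 above the median gene. As deposited the median was -0.05, and 12 of the 18 genes changed sign, so no direction can be given to the group. This comparison shares the IL-1β array with the comparison before it.

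Col5a3, the third type V chain, had the highest ratio with indomethacin, 0.50. Its signals were 360 in the iloprost dish, 516 in the indomethacin dish, 406 in the IL-1β dish and 339 in the vehicle dish, so that the indomethacin array stood above the other 3. The next highest was Col6a3, at 0.29, and the lowest were Col11a1, at -0.24, and Col12a1, at -0.16. The other probe set of Col11a1 stood at 0.11. The other 14 genes lay between -0.01 and 0.18 on their brightest probe sets. Some of their dimmer probe sets lay outside this span, the farthest being Col4a1 at 0.40, Col5a2 at -0.36 and Col14a1 at -0.29. Of the 18 genes, 17 were within 0.3 of the median gene, or 94.4%, against 80.1% of all genes.

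Iloprost added to IL-1β and indomethacin was compared with IL-1β and indomethacin, which asks what a prostacyclin analogue does in cells whose own prostanoid synthesis is inhibited. None of 18 collagen genes was 1.5-fold higher or lower, in a comparison where 7.83% of 6986 genes were higher and 7.19% lower. The collagen median was 0.02, against 0.04 for all genes, and the median size of the ratio without its sign was 0.10, against 0.22. The lowest ratio was -0.53 for Col5a3, whose indomethacin signal was the highest of the 4, and the next -0.31 for Col4a1. The highest were 0.33 for Col11a1, 0.31 for Col12a1, 0.21 for Col8a1 and 0.20 for Col1a1. On its other probe set, Col11a1 stood at -0.04. Both the Col5a3 ratio here and that with indomethacin use the indomethacin array.

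A split of the genes by brightness gave the same picture with iloprost against indomethacin. The brightness limit was chosen after the data were seen. Of 552 genes with a mean signal of at least 1000, 13.2% differed by 1.5-fold with iloprost against indomethacin, and 0 of the 7 collagen genes among them did. With a mean signal under 1000, 791 of 5670 genes did and 0 of 11 collagen genes.

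**Figure D3:**
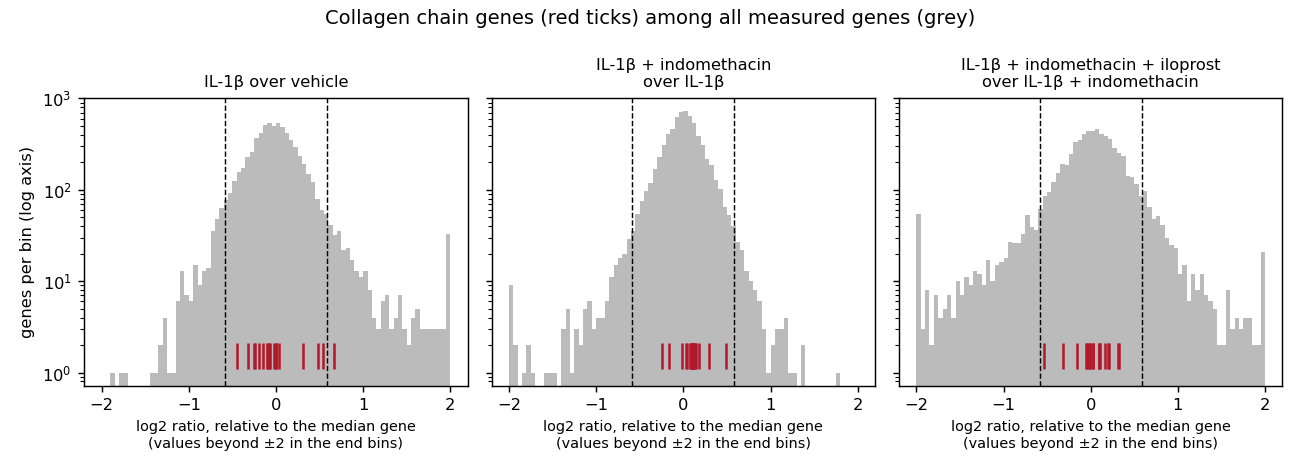
Number of genes per bin of log2 ratio (grey, log axis) over all genes measured in each of 3 comparisons, with the 18 measured collagen chain genes as red ticks; dashed lines mark 1.5-fold. The collagen ticks lie between -0.53 and 0.66 in all 3 panels, while other genes reach beyond 2 on the log2 scale.

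Against IL-1β alone, the iloprost dish had 0 of 18 collagen genes past 1.5-fold, where 5.11% of 7050 genes were higher and 5.91% lower. The collagen median was 0.13, and -0.00 as deposited, and the range ran from -0.13 for Col4a1 to 0.34 for Col1a1. On their other probe sets, Col4a1 stood at 0.25 and Col1a1 at -0.00. Against vehicle, the indomethacin dish and the iloprost dish each had 2 collagen genes at least 1.5-fold higher, Col4a5 and Col8a1, and 0 lower. The background was 3.47% of 6804 genes higher and 2.85% lower with indomethacin, and 7.68% of 6983 genes higher and 7.59% lower with iloprost. The 2 comparisons share the vehicle array. No collagen gene reached 2-fold in any of the 6 comparisons with the floor of 37.6. With a floor at the 35th percentile, Col7a1 did in the iloprost dish, at 1.18 or more against indomethacin, 1.07 against IL-1β and 1.10 or more against vehicle. Of all genes, 2.28% did with IL-1β against vehicle, 0.909% with indomethacin against IL-1β and 5.17% with iloprost against indomethacin. The share was 3.32% for iloprost against IL-1β, 1.65% for indomethacin against vehicle and 6.06% for iloprost against vehicle.

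Probe sets of the same collagen gene did not always give the same ratio. For 10 genes, 2 or more probe sets were above the floor on every array, 21 in all. The 3 probe sets of Col5a1 gave -0.20 to -0.14 with IL-1β against vehicle, a difference of 0.06. The bright probe set of Col5a2 gave -0.10 there, and the dimmer one gave 0.40, from signals of 877 in the iloprost dish, 680 in the indomethacin dish, 965 in the IL-1β dish and 627 in the vehicle dish. On that dimmer probe set the iloprost and IL-1β arrays were high and the other 2 low. In the same comparison the dimmer probe set of Col1a1 gave 0.17 and the brighter -0.25, a difference of 0.42. With iloprost against indomethacin, the dimmer probe set of Col14a1 gave 0.62, past 1.5-fold, and the brighter one 0.02.

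**Figure D4:**
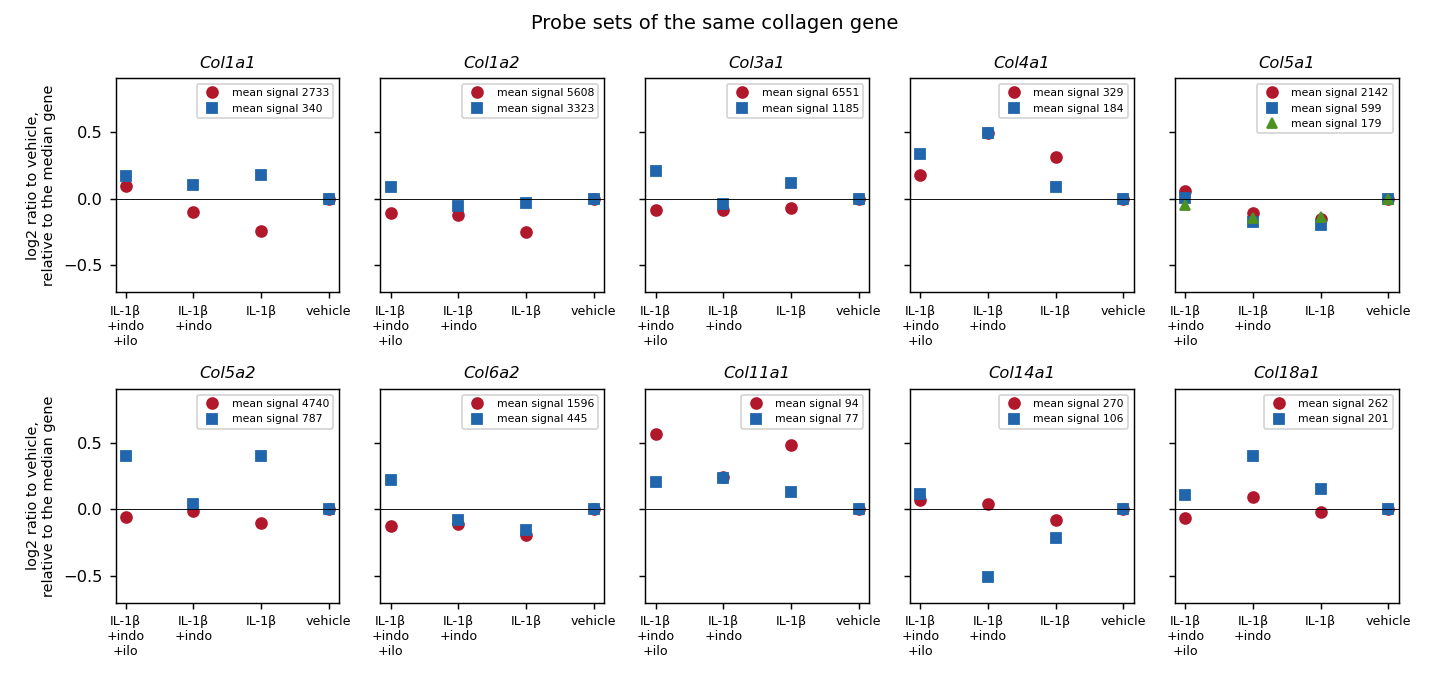
Log2 ratio to vehicle, relative to the median gene, of each probe set above the floor on all arrays for the 10 collagen genes with more than 1 such probe set; each panel is 1 gene, each symbol a probe set with its mean signal, and vehicle is 0 by construction. The probe sets of Col5a1 lie together, while those of Col5a2 differ by 0.50 with IL-1β.

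Genes that fold, modify and secrete collagen were mostly within 1.5-fold as well. Of 22 measured biosynthesis genes, 0 were 1.5-fold higher with IL-1β and 1 was lower, Tmem38b, an ion channel of the endoplasmic reticulum, at -0.85, beside 4.65% and 3.86% of all genes. Plod2, the lysyl hydroxylase of the collagen telopeptides, had signals of 316 in the iloprost dish, 205 in the indomethacin dish, 322 in the IL-1β dish and 215 in the vehicle dish. Its ratio was -0.50 with indomethacin against IL-1β and 0.62 with iloprost against indomethacin, the 1 gene of 22 past 1.5-fold there, where 7.83% of all genes were higher. Tmem38b was the 1 gene of 22 past it with indomethacin, at 0.66, where 1.64% of all genes were higher. Its signals were 196 in the iloprost dish, 230 in the indomethacin dish, 162 in the IL-1β dish and 250 in the vehicle dish. Both Tmem38b ratios thus use the IL-1β array, which was the lowest. The list median was 0.05 for IL-1β, -0.06 for indomethacin and 0.12 for iloprost, beside -0.02, 0.00 and 0.04 for all genes, and the indomethacin median was -0.21 as deposited. The collagen chaperone gene Serpinh1 lay between -0.04 and 0.06 in these 3 comparisons.

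Of the genes for extracellular processing and crosslinking, 0 of 18 passed 1.5-fold with IL-1β, and 0 of 19 with indomethacin or with iloprost. The crosslinking enzyme gene Lox had signals of 5306 in the iloprost dish, 5546 in the indomethacin dish, 5961 in the IL-1β dish and 5272 in the vehicle dish. The transglutaminase gene Tgm2 had 2447, 1729, 1793 and 1120 in the same order, with the iloprost dish highest, and was at 0.59 in the iloprost dish against IL-1β and 1.04 against vehicle.

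Among the genes that degrade collagen, a list that also holds the protease inhibitors, a few lay far from the median gene. With IL-1β against vehicle, 3 of 12 were at least 1.5-fold higher and 1 lower, beside 4.65% and 3.86% of all genes. The median size of the ratio without its sign was 0.16, beside 0.17 for the collagen chains. Mmp13, the main mouse interstitial collagenase, had signals of 515 in the iloprost dish, 1740 in the indomethacin dish, 1420 in the IL-1β dish and 759 in the vehicle dish, a ratio of 0.68 with IL-1β and -1.77 with iloprost against indomethacin. The gelatinase gene Mmp9 had 641, 1255, 1167 and 573 in the same order, a ratio of 0.80 with IL-1β and -0.98 with iloprost. These 2 of 12 were the genes of the list past 1.5-fold with iloprost, both lower, beside 7.19% of all genes.

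The third higher gene with IL-1β was the inhibitor Timp1, at 0.75, and the lower one the fibroblast protease gene Fap, at -0.76, from signals next to the floor. Fap was also the 1 gene of 12 past 1.5-fold with indomethacin, at 0.60, beside 1.64% of all genes that were higher. Both Fap ratios use the IL-1β array, which was the lowest. The list medians were -0.01, 0.03 and -0.03 in the 3 comparisons. Macrophages can also make Mmp9 and other proteases of this list. With iloprost against indomethacin, 5 of 17 macrophage markers were at least 1.5-fold lower and 1 higher, beside 7.19% and 7.83% of all genes. The lower ones were Fcgr1 at -1.46, Adgre1 at -0.77, Cybb at -0.75, Aif1 at -0.74 and C1qa at -0.62, and the higher one was Cd14 at 0.62. The part of macrophages in the protease values was not tested.

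Of 7 measured collagen receptors, 0 passed 1.5-fold with IL-1β or with indomethacin. With iloprost against indomethacin, the scavenger receptor gene Cd36 stood at 0.67, and the leukocyte inhibitory receptor gene Lair1 reached the floor, a ratio of at most -1.58, beside 7.83% of all genes higher and 7.19% lower. Lair1 had signals of 37.3 in the iloprost dish, 112 in the indomethacin dish, 124 in the IL-1β dish and 155 in the vehicle dish, with the iloprost dish far below the other 3. The collagen receptor genes of fibroblasts Ddr2 and Mrc2 were within 0.21 of the median gene in these 3 comparisons. Ddr1 and Cd44 of the same list were not, with Ddr1 at -0.48 with iloprost against indomethacin and Cd44 at 0.47 with IL-1β. The list median was -0.05 for IL-1β, -0.01 for indomethacin and 0.09 for iloprost. Macrophages also carry Cd36 and Lair1, and the part of the macrophage markers in these values was not tested.

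Several genes of TGF-β signalling and collagen transcription passed 1.5-fold. With IL-1β, 5 of 29 were higher and 0 lower, beside 4.65% and 3.86% of all genes, with Ets1 at 1.83, Tgfb2 at 1.65, the TGF-β-induced gene Tgfbi at 0.68, the inhibitory Smad7 at 0.67 and the latency protein gene Ltbp3 at 0.65. Smad7 had signals of 89.5 in the iloprost dish, 50.6 in the indomethacin dish, 99.4 in the IL-1β dish and 53.3 in the vehicle dish, so the indomethacin dish lay next to vehicle. It was the 1 gene of 29 past 1.5-fold with indomethacin, at -0.83, beside 2.35% of all genes that were lower. The Smad7 ratios of the different comparisons share arrays. Its signals in the indomethacin and vehicle dishes lay not far above the floor.

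With iloprost against indomethacin, 4 of 29 genes of this list were higher, Tgfbi at 1.05, Ltbp1 at 0.88, Smad7 at 0.81 and the co-receptor gene Tgfbr3 at 0.76. The Ltbp1 signal in the indomethacin dish was 43.3, next to the floor. Ets1 and the receptor gene Tgfbr1 were lower, at -0.70 and -0.65. Of all genes, 7.83% were higher and 7.19% lower there. The list medians were 0.10, 0.01 and 0.11 in the 3 comparisons.

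**Figure D5:**
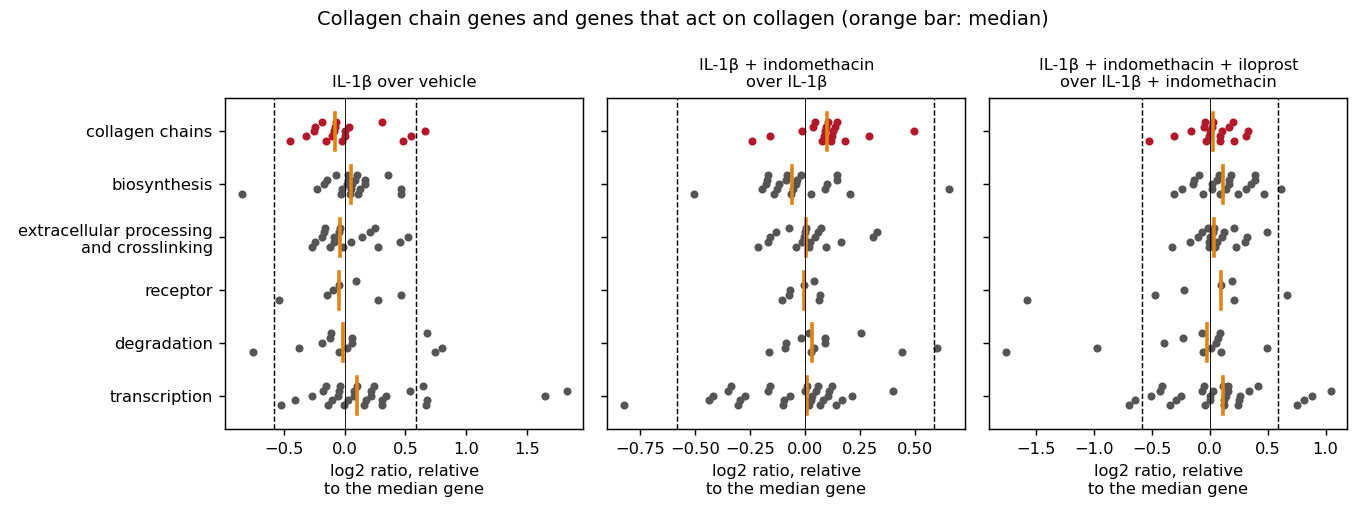
Log2 ratio relative to the median gene of the measured collagen chain genes (red) and of 5 lists of genes that act on collagen (grey), 1 point per gene, with the list median as an orange bar and 1.5-fold as dashed lines. The list medians lie between -0.08 and 0.12 in all 3 panels, and the points farthest out are Ets1 at 1.83 with IL-1β and Mmp13 at -1.77 with iloprost.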

How the data were processed

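RNA of 4 dishes was hybridised to a 1-colour Affymetrix array, per the labels' protocols. The deposited table gives intensity on a linear scale for each probe set. The summarisation software with its background correction and scaling was not given in the sources used here. All 4 columns were used. The number of arrays limits the precision.

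Probe sets were named through the platform annotation, with gene numbers looked up in RefSeq (assembly GRCm38.p6), which changed 0 symbols. Of 22690 probe sets, 20380 name 1 gene and were used, 691 name several and 1606 none, and control probe sets were left out. Python 3.11.15, numpy 2.4.6 and pandas 2.3.3 were used. Signals under the floor of 37.6 were set to it, and a gene at the floor on 1 array has a bound. Ratios are relative to the median log2 signal of 6222 genes above the floor on all arrays. There was no test between groups.

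Every measured collagen gene is named, and of each pathway list the genes past 1.5-fold in the IL-1β to vehicle, indomethacin to IL-1β and iloprost to indomethacin comparisons, at most 6 each. Serpinh1, Lox, Tgm2, Ddr1, Ddr2, Mrc2 and Cd44 fall outside this rule and were chosen after their values were seen. The members and lists were chosen with earlier results of these data known. Of the listed genes, 22 of 28 biosynthesis, 23 of 27 processing, 8 of 12 receptor, 16 of 16 degradation and 33 of 37 transcription genes were on the array. Alternatives were the scale, the floor, the probe set of a gene and a 2-fold threshold.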

Additional observations from a re-analysis of the deposited data

How the results depend on the processing

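With 1 array per treatment no array could be left out, and no paired analysis was possible because the labels give 1 sample per group. For IL-1β against vehicle, the collagen genes past 1.5-fold upward numbered 1 as reported and 3 as deposited (Col4a5, Col8a1 and Col11a1), where the median turned to 0.15, and 0 with a floor at the 65th percentile, 0 with the median over probe sets and 0 at 2-fold. In both the indomethacin and the iloprost dish against vehicle, the 2 genes became 1 with that floor, 0 with the median over probe sets and 0 at 2-fold, but 3 as deposited (Col5a3 added with indomethacin, Col11a1 with iloprost), and with iloprost also 3 with the floor at the 35th percentile (Col7a1 added). A higher floor or a dim probe set at the floor shrinks a ratio by construction, which touches Col4a5 and Col8a1. With iloprost against indomethacin, 1 gene was higher with a floor at the 35th percentile (Col7a1), 1 without the probe sets whose names end in _s_at, _x_at or _a_at (Col14a1), and 1 with the dimmest probe set above the floor, an alternative chosen after seeing the data. Against IL-1β alone, 1 was higher with the lower floor (Col7a1). No collagen gene was 1.5-fold lower in any comparison under these settings, and no gene past 1.5-fold changed sign.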
